A study of Mus musculus with 816 samples.

Results

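Gene expression was compared between primary mouse microglia kept for 72 h with IL13 alone (6 cultures), with IL4 alone (3 cultures), or with IL4, IL10 and IL13 together (6 cultures, called the mix), and microglia left without a stimulus for 72 h (25 cultures). These 15 treated cultures were picked by their labels, no LPS being added to any of them, out of 816 samples in the series, which holds cultures given many other stimuli and microglia taken from mice. Microglia are the resident macrophages of the brain, and these came from neonatal mouse brain as a commercial primary preparation, plated in multi-well plates before the stimulus was added. The labels give a dose of 0.00005 ug/ul for IL13, for IL4, for IL10 and for the mix, and they do not say whether the dose of the mix is per cytokine or in total. The labels name no genotype, strain or age for the cultures beyond this. Cultures given IL10 alone for 72 h (6 cultures, 0.00005 ug/ul) are set beside the mix, and cultures given IL13 (9), IL4 (11) or nothing (40) for 24 h are set beside the later time.

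IL4 and IL13 are related cytokines of type 2 immunity. Both can signal through receptors that hold the IL4 receptor alpha chain, and both activate the transcription factor STAT6, which in macrophages turns on the genes of the alternative activation state. IL10 uses a different receptor, acts through STAT3, and is best known for damping the expression of inflammatory genes.

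RNA was read as 3′-end libraries, and the deposited values, which the study's methods call TPM, were treated as CPM, the reads of a gene scaled to a fixed number of mapped reads per library. Tests were run on log2(CPM + 1), a scale on which the change of genes with low values is understated. A gene was called when the limma test across all 12127 genes with more than 5 CPM in at least 3 cultures gave a Benjamini-Hochberg adjusted p under 0.05 and the log2 difference was at least 1 in size. Depth was 1.00 to 10.6 M mapped reads in the IL13 cultures (M), 2.97 to 4.79 M with IL4, 1.43 to 5.94 M with the mix and 1.45 to 14.4 M without a stimulus, so a gene at 1 CPM rests on a few reads. In bulk cultures, fewer cells of a kind and less RNA per cell cannot be told apart.

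The wells were not spread evenly over the groups. All 3 IL4 cultures sat in middle wells of a single plate and library pool, 5 of the 6 IL13 cultures sat in middle wells, and culture 4 sat in an edge well. Of the mix, cultures 1 to 4 were in edge wells and cultures 5 and 6 in middle wells of another plate. The untreated group held 15 edge or corner wells and 10 middle wells, and all 10 middle wells came from 1 plate that held no culture of the treated groups. The untreated edge and corner wells all lay on other plates. Many genes differed between untreated middle and edge wells, where position cannot be told apart from plate. Values restricted to middle wells are given wherever they ended a call. Microglial markers were high in each group: the summed level of 11 of them was 985 to 7113 CPM without a stimulus, 3322 to 8445 with IL13, 4930 to 5502 with IL4 and 3295 to 4631 with the mix. These sums rest on the abundant markers. By median, all 11 were above 1 CPM without a stimulus, while Sall1 was under 1 CPM with IL13 and IL4, P2ry12 with IL4 and the mix, and Siglech with the mix. The summed level of 6 astrocyte markers stayed at or under 21 CPM in every culture of these groups, and T and NK cell markers were at 0 in all treated cultures. The summed level of 5 perivascular macrophage markers, of which Cbr2, Pf4 and Mrc1 were above 1 CPM by median and the others at 0, was 91.4 to 707 CPM without a stimulus (median 250), 128 to 812 with IL13 (median 674), 452 to 577 with IL4 and 230 to 517 with the mix. Immediate early and heat shock genes, a list of 7 that marks stress, summed to 207 to 479 CPM without a stimulus, 215 to 622 with IL13, 416 to 539 with IL4 and 501 to 1874 with the mix, whose cultures did not overlap the untreated ones. By median, Fos, Jun, Egr1, Atf3 and Dusp1 were above 1 CPM in each of these groups, and the heat shock genes Hspa1a and Hspa1b in none. Mitochondrial genes took 0.928 to 6.02% of the values without a stimulus, 1.43 to 2.73% with IL13, 0.968 to 1.36% with IL4 and 1.04 to 1.73% with the mix. The part of these differences in the results was not tested.

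Against untreated cultures, 179 genes were called with IL13 (1.48% of genes tested), 278 with IL4 (2.29%) and 735 with the mix (6.06%). With IL13, 117 genes rose (0.965%) and 62 fell (0.511%). With IL4, 189 rose (1.56%) and 89 fell (0.734%). With the mix, 267 rose (2.2%) and 468 fell (3.86%). The 3 comparisons share the untreated cultures, so the values of each are given side by side and no overlap between them is read as a result. IL10 alone gave 182 calls (1.5%), with 52 genes higher (0.429%) and 130 lower (1.07%). These counts and their splits moved with the cultures used. With middle wells only, which also left out IL13 culture 4 and mix cultures 1 to 4, there were 648 for IL13 (225 higher and 423 lower), 969 for IL4 (328 higher and 641 lower) and 3589 for the mix (734 higher and 2855 lower). With all treated cultures against the untreated cultures of their own plates alone, with plate in the fit, they were 454, 344 and 550, and with culture plate as a factor 750, 513 and 792. With library pool as a factor they were 410 for IL13 and 180 for the mix, the latter with 120 higher and 60 lower. The pool of the 3 IL4 cultures held 1 untreated culture, in an edge well. The pools of IL13 cultures 5 and 6 and of mix cultures 5 and 6 held no untreated culture. Where a call was lost with pool as a factor, a pool effect cannot be told apart from this lack of untreated wells. Rescaling by median ratio turned the split of the mix to 316 higher and 390 lower. In middle wells alone the median difference of all genes was −0.20 with IL13, −0.30 with IL4 and −0.78 with the mix. Middle-well values of single genes stand beside that shift.

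The genes classically used to recognise alternative activation rose with all 3 stimuli. Of 22 such markers listed, 19 passed the filter on low values. IL13 raised 11 of them, IL4 raised 14 and the mix raised 12, against 0.965%, 1.56% and 2.2% of all genes, and none fell. The median log2 difference of the 19 was 2.28 with IL13, 3.77 with IL4 and 2.36 with the mix, where the medians of all genes tested were −0.00, −0.06 and −0.25. The markers include Arg1, Retnla, Chil3, Mgl2 and Slc7a2, the last being the transporter that carries arginine into the cell for Arg1. Mgl2 passed the filter only through cultures given a stimulus, which favours a rise. Retnla and Chil3 were at 0 in most untreated cultures and could hardly fall. That none of the 19 fell is therefore not read as a result, and the same holds for such genes in the lists below. The list was written with earlier results of these data known.

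**Figure D1:**
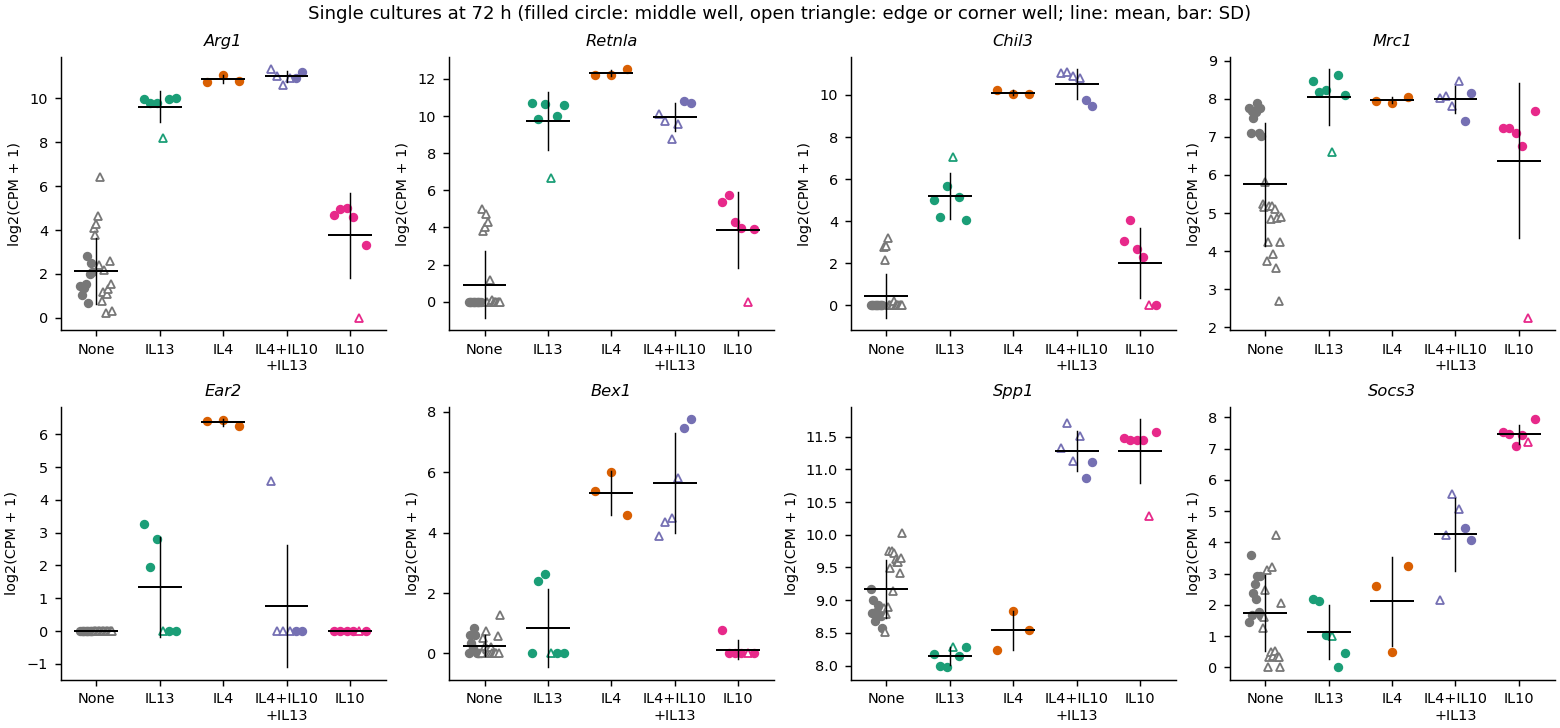
Level of 8 genes in each culture at 72 h, as log2(CPM + 1) on the vertical axis, for untreated, IL13, IL4, mix and IL10 cultures (filled circles are middle wells, open triangles edge or corner wells, the line is the group mean and the bar its SD). Arg1, Retnla and Chil3 were above every untreated culture in all 15 cultures given IL13, IL4 or the mix, while Spp1 was high with the mix and with IL10.

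Arg1, the arginase that turns arginine into ornithine and urea, was at 0.146 to 85.5 CPM without a stimulus, with a median of 1.91. It was at 1011, 874, 881, 291, 1009 and 1028 CPM in IL13 cultures 1 to 6, at 1719, 2152 and 1758 CPM with IL4, and at 1567 to 2551 CPM with the mix (median 2016). Every treated culture lay above every untreated one, and IL13 culture 4, in the edge well, was the lowest of them. The log2 difference from untreated cultures was 7.48 ± 0.58 (SE; limma, adjusted p = 2.4e-13) with IL13, 8.72 ± 0.79 (adjusted p = 9.4e-12) with IL4 and 8.86 ± 0.58 (adjusted p = 1.3e-16) with the mix. The direct comparisons among the 3 stimuli did not pass the test for Arg1: the mix differed from IL13 by 1.38 ± 0.74 (adjusted p = 0.39) and IL4 from IL13 by 1.25 ± 0.91 (adjusted p = 0.94).

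Retnla encodes a secreted resistin-like protein of alternatively activated macrophages. It was listed at 0 in 18 of the 25 untreated cultures and reached 31 CPM in the others. IL13 gave 99.6 to 1673 CPM (median 1283), the low value again being culture 4, IL4 gave 4806, 4721 and 5819 CPM, and the mix gave 429 to 1769 CPM (median 973). All treated cultures were above the untreated range, and the 3 IL4 cultures were above every IL13 and mix culture. The log2 differences were 8.81 ± 0.71 (adjusted p = 3.5e-13), 11.39 ± 0.95 (adjusted p = 1e-12) and 9.01 ± 0.71 (adjusted p = 4.3e-14) with IL13, IL4 and the mix. The difference of IL4 from IL13, 2.57 ± 1.1, did not pass the test over all wells (adjusted p = 0.73), and in middle wells alone it was 1.95 (adjusted p = 0.0029). Untreated cultures of plate A, the plate of all IL4 cultures, had 13.2 to 31 CPM of Retnla, against 0 to 18.9 CPM in the other untreated wells.

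Chil3, a chitinase-like lectin of macrophages, separated IL13 from the other 2 stimuli. It was at 0 in 20 untreated cultures and at most 8.26 CPM in the rest. IL13 cultures had 15.7 to 131 CPM with a median of 33.1, IL4 cultures had 1216, 1045 and 1055 CPM, and mix cultures had 701 to 2151 CPM with a median of 1833. The IL13 cultures overlapped neither the untreated nor the IL4 and mix cultures. The log2 difference from untreated cultures was 4.74 ± 0.51 with IL13, 9.66 ± 0.68 with IL4 and 10.06 ± 0.51 with the mix (adjusted p = 3e-09, 4.5e-15 and 2.7e-21). Chil3 was higher with the mix than with IL13 by 5.31 ± 0.65 (adjusted p = 2.2e-07), and higher with IL4 than with IL13 by 4.92 ± 0.79 (adjusted p = 0.00024). With library pool as a factor the latter difference was 3.20 and lost its call (adjusted p = 0.069). Chil4, a close copy whose 3′ reads may be shared with Chil3, was listed at 0 in all IL13 cultures and at 30.7, 20.1 and 2.16 CPM with IL4.

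The promoters of a few of these genes are shown because STAT6 is known to bind a palindrome with 4 bases between its arms, TTCNNNNGAA, and other STAT factors one with 3, TTCNNNGAA; both read the same on either strand. The window is the 250 bases before to 50 bases after each start site in RefSeq (build GRCm38.p6), capitals mark the motif, and 10 bases are printed on each side. Among 42 genes called higher in all 3 comparisons, 35 had a promoter sequence, and 5 of these (14.3%) held TTCNNNNGAA, against 6.57% of the 8550 promoters of all genes tested. TTCNNNGAA was found in 4 of the 35 (11.4%), against 8.22% of all. A match describes letters and no binding was measured.
Retnla, chr16:48842454-48842483, plus strand: agaatcataaTTCACAAGAAattgctaaac
Tmem26, chr10:68723509-68723538, plus strand: gtggagggcaTTCTTATGAActccctgggg
Tmem26, chr10:68723695-68723724, plus strand: ctttgaagagTTCTCTGGAAgttggagggg
Lgals3, chr14:47373612-47373641, plus strand: tcactgccatTTCTGCGGAAggcttcaggt
Cish, chr9:107296649-107296677, plus strand: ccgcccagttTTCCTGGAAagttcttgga
Cish, chr9:107296660-107296688, plus strand: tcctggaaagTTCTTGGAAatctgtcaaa
Chil3, chr3:106167718-106167746, minus strand: aaatacccacTTCTTAGAAacatagctat
The first 4 windows hold the longer spacing and the last 3 the shorter one. The Retnla motif begins 145 bases before the start site and the Chil3 motif 172 before it. The Cish motifs begin at the start site and 11 bases after it.

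Tmem26, a membrane protein of little known function in macrophages, was at 0 to 20.2 CPM without a stimulus, at 57.1 to 292 CPM with IL13, at 368, 613 and 557 CPM with IL4 and at 192 to 340 CPM with the mix. No treated culture overlapped the untreated ones. It rose by 5.68 ± 0.55, 7.29 ± 0.74 and 6.41 ± 0.55 on the log2 scale (adjusted p = 2.1e-10, 3e-10 and 7.3e-13). Slc7a2 rose by 4.52 ± 0.55 with IL13, by 6.17 ± 0.74 with IL4 and by 5.02 ± 0.55 with the mix (adjusted p = 1.2e-07, 3.6e-08 and 2.5e-09). Only IL13 culture 4, at 37.2 CPM, fell inside the untreated range of 0 to 71.4 CPM for Slc7a2. Of the 13 genes tested in arginine and polyamine metabolism, the called ones were Arg1 and Slc7a2 with each stimulus and Srm, the spermidine synthase, with the mix (1.53 ± 0.50, adjusted p = 0.048), a call lost with plate (1.44) or pool (0.84) as a factor and without any 1 of 12 of the 15 treated cultures (1.41 to 1.63). Odc1, the enzyme that takes ornithine into polyamines, differed from untreated cultures by 0.06 ± 0.34, −0.08 ± 0.46 and −0.17 ± 0.34 with IL13, IL4 and the mix.

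Mgl2, a galactose-binding C-type lectin, was uneven within groups. It was at 149, 127, 113, 0, 1.03 and 78.0 CPM in IL13 cultures 1 to 6, at 402, 548 and 640 CPM with IL4, and at 25.6, 40.9, 4.93, 29.3, 424 and 438 CPM in mix cultures 1 to 6, against at most 4.39 CPM without a stimulus. IL13 cultures 4 and 5 lay inside the untreated range, and in the mix the high values were those of the middle wells of plate C. The log2 differences of 4.43 ± 0.68, 8.73 ± 0.91 and 5.56 ± 0.68 were called (adjusted p = 2.6e-05, 6.2e-10 and 4e-08), and that of the mix lost its call with library pool as a factor (2.72, adjusted p = 0.09). Mrc1, the mannose receptor, had log2 differences of 2.28 ± 0.61 (adjusted p = 0.034), 2.21 ± 0.82 (adjusted p = 0.19) and 2.23 ± 0.61 (adjusted p = 0.015). Untreated middle wells had 130 to 236 CPM of Mrc1 and untreated edge wells 5.49 to 55.1 CPM. Within middle wells the Mrc1 differences were 0.805 with IL13, 0.446 with IL4 and 0.263 with the mix, all under the size needed for a call. The IL13 call of Mrc1 was also lost when any 1 of 5 IL13 cultures was left out (2.16 to 2.27).

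Ribonuclease genes of the eosinophil-associated family, whose members are similar in sequence so that their reads may be split uncertainly, were highest with IL4. Rnase2a was at 0 in 21 untreated cultures and at most 1.38 CPM in the rest. It was at 225, 155, 158, 0, 112 and 5.36 CPM in IL13 cultures 1 to 6, at 419, 511 and 475 CPM with IL4, and at 10.8 to 61.1 CPM with the mix. The IL4 cultures were above all others and the mix cultures overlapped the IL13 ones. Rnase2a rose by 5.23 ± 0.55 (adjusted p = 2e-09), 8.78 ± 0.74 (adjusted p = 1e-12) and 4.59 ± 0.55 (adjusted p = 2.5e-08), and was lower with the mix than with IL4 by −4.20 ± 0.86 (adjusted p = 0.014). That difference lost its call without any 1 of the 3 IL4 cultures, at −4.27 to −4.13. Ear2 was at or near 0 in all untreated cultures and in 5 of 6 mix cultures, the other being at 23 CPM. Its levels were 83.1, 86.1 and 75.3 CPM with IL4 and 8.59, 2.87, 6.05, 0, 0 and 0 CPM with IL13. The groups given IL4 and IL13 did not overlap for Ear2, and IL4 was higher than IL13 by 5.03 ± 0.62 (adjusted p = 1.4e-06) and the mix lower than IL4 by −5.60 ± 0.62 (adjusted p = 2.6e-08).

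**Figure D2:**
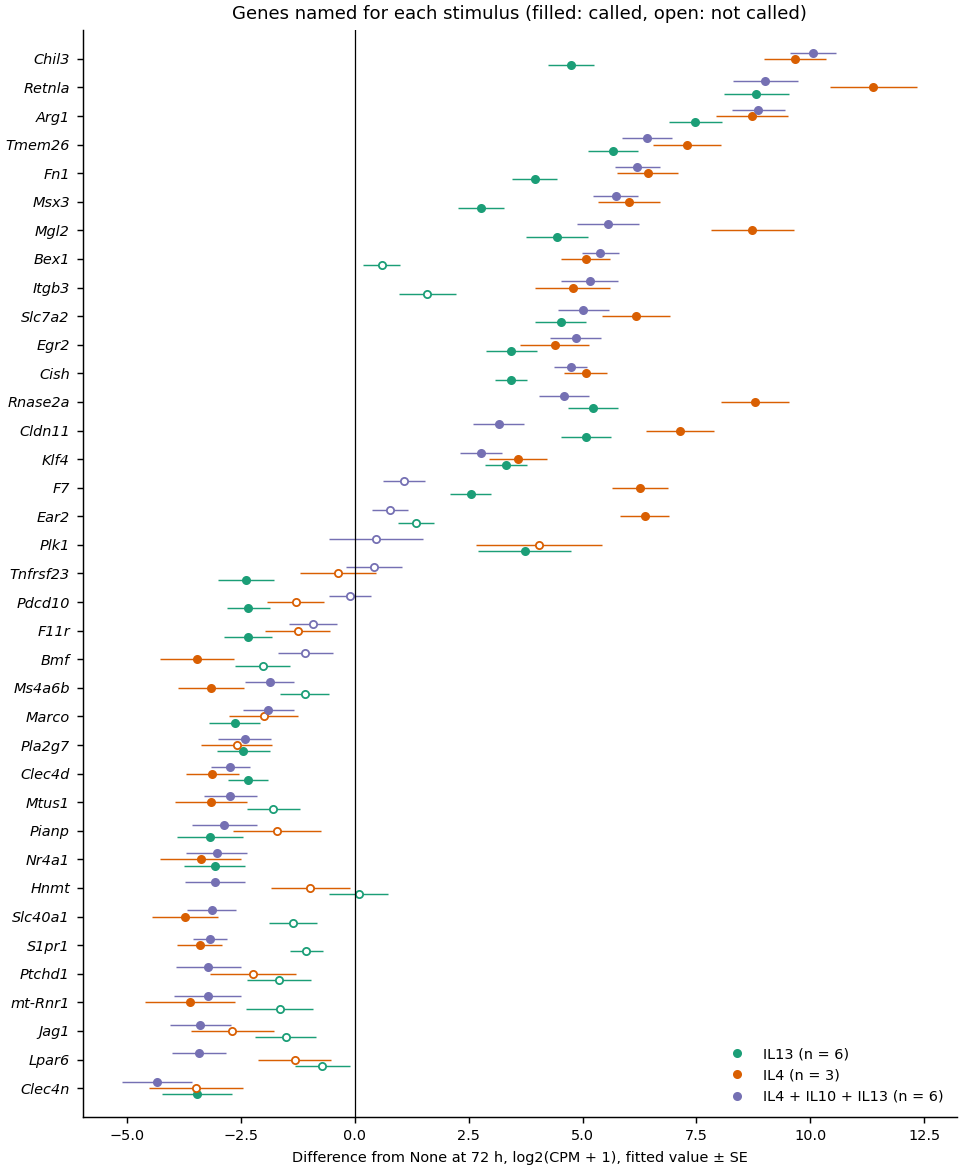
Log2 difference from untreated cultures at 72 h, with its SE, for the 37 genes named by rule in the 3 comparisons, for IL13, IL4 and the mix (filled points were called, open points were not). Retnla has the largest rise with IL13 and with IL4 and Chil3 with the mix, and F7 and Rnase2a are higher with IL4 than with the mix.

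Coagulation factor VII, F7, followed the same order. It was at 72.7, 94.4 and 76.0 CPM with IL4, at 0, 4.13, 10.6, 103, 7.98 and 0 CPM with IL13, at 0 to 4.64 CPM with the mix, and at most 0.862 CPM without a stimulus. IL13 culture 4 alone reached the IL4 values. F7 rose with IL4 by 6.26 ± 0.61 (adjusted p = 8.5e-11) and with IL13 by 2.54 ± 0.45 (adjusted p = 0.00049), while the mix gave 1.08 ± 0.45 (adjusted p = 0.15). It was lower with the mix than with IL4 by −5.18 ± 0.71 (adjusted p = 7e-06). Cldn11, a tight junction protein best known from myelin, was at 140, 154 and 130 CPM with IL4 and at 0 to 281 CPM with IL13, where culture 4 was at 0. Mix cultures had 0.673 to 46.4 CPM of Cldn11 and 24 of 25 untreated cultures were at 0. The differences were 5.07 ± 0.55, 7.14 ± 0.74 and 3.16 ± 0.55, all called (adjusted p = 4.6e-09, 6.1e-10 and 8.4e-05), that of the mix being lost with pool as a factor (1.65). Cldn11 was lower with the mix than with IL4 by −3.99 ± 0.86 (adjusted p = 0.029), and that call was lost without any 1 of the 3 IL4 cultures or of mix cultures 1 to 3 (−4.04 to −3.50), and in middle wells (−2.01). The summed level of 8 oligodendrocyte markers was 31.3 to 77.3 CPM with IL13, 60.7 to 91.2 with IL4, 7.53 to 83.0 with the mix and 3.83 to 85.5 without a stimulus. Mbp, Mag and Cspg4 were above 1 CPM by median in each of these groups, 4 or 5 of the 8 were at 0, and the part of such cells in the Cldn11 values was not tested.

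Among the receptors and the JAK and STAT genes through which these cytokines signal, the genes that rose were feedback inhibitors. Of 17 genes tested, 1 rose with IL13, 3 with IL4 and 4 with the mix, against 0.965%, 1.56% and 2.2% of all genes, and none fell. Il4ra, the shared receptor chain, was at 5.82 to 90.8 CPM without a stimulus, at 7.98 to 38.5 with IL13, at 15.8 to 27.8 with IL4 and at 12.3 to 91.7 with the mix. The groups overlapped, and the log2 differences were −0.53 ± 0.37, −0.44 ± 0.50 and 0.63 ± 0.37 (adjusted p = 0.56, 0.79 and 0.34). With IL10 alone Il4ra was higher than without a stimulus by 2.49 ± 0.37 (adjusted p = 5.1e-05). Stat6 differed by 0.09 ± 0.37, 0.69 ± 0.50 and 0.42 ± 0.37 (adjusted p = 0.95, 0.64 and 0.56).

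Cish, a SOCS-family inhibitor of cytokine receptors, was at most 2.37 CPM without a stimulus, with 15 of 25 cultures at 0. IL13 cultures had 6.24 to 31.3 CPM, IL4 cultures 27.2, 40.5 and 58.3 CPM, and mix cultures 13.3 to 72.0 CPM. Every treated culture was above every untreated one. The log2 differences were 3.43 ± 0.35 (adjusted p = 1.2e-09), 5.07 ± 0.48 (adjusted p = 2.9e-11) and 4.74 ± 0.35 (adjusted p = 7.1e-15). Socs1 was called with IL4 (3.88 ± 0.88, adjusted p = 0.0053) and with the mix (3.02 ± 0.65, adjusted p = 0.0015), with IL13 at 1.41 ± 0.65 (adjusted p = 0.32). The Socs1 call with IL4 was lost without IL4 culture 1 or 3 (3.57 and 3.83), and that with the mix in middle wells (1.64). Socs2 was called with IL4 (4.48 ± 0.81, adjusted p = 0.00031) and the mix (4.21 ± 0.61, adjusted p = 1.9e-06), with IL13 at 1.75 ± 0.61 (adjusted p = 0.15), and the differences between the stimuli did not pass for either gene.

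Socs3, the feedback inhibitor best known as a target of STAT3, moved with the cultures that had received IL10. It was at 0 to 3.52 CPM with IL13, at 5.05, 0.418 and 8.39 CPM with IL4, at 3.49 to 45.3 CPM with the mix and at 0 to 18 CPM without a stimulus. In the mix, 3 of 6 cultures were above the untreated range and no IL13 or IL4 culture was. The log2 difference was 2.52 ± 0.53 with the mix (adjusted p = 0.001), 5.71 ± 0.53 with IL10 alone (adjusted p = 4.8e-11) and −0.61 ± 0.53 with IL13 (adjusted p = 0.65). Socs3 was higher with the mix than with IL13 by 3.12 ± 0.67 (adjusted p = 0.0082), and the difference of the mix from IL4 did not pass (2.15 ± 0.82, adjusted p = 0.72). The Socs3 call of the mix was lost with library pool as a factor (2.62). Bcl3, another IL10 response gene and a nuclear partner of NF-kB, was higher with the mix than with IL13 by 2.11 ± 0.53 (adjusted p = 0.03), lost with pool as a factor (2.21), in middle wells (1.48) and without IL13 culture 3 or 5 or mix culture 1 (1.66 to 1.86). Of 13 IL10 response genes tested, 3 rose with the mix, 1 with IL4 and 1 with IL13, against 2.2%, 1.56% and 0.965% of all genes. Hmox1, the heme oxygenase, fell with IL13 by 1.07. That call was lost with pool as a factor (−0.61), in middle wells (−0.98) and without any 1 of 4 IL13 cultures (−1.03 to −0.914).

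**Figure D3:**
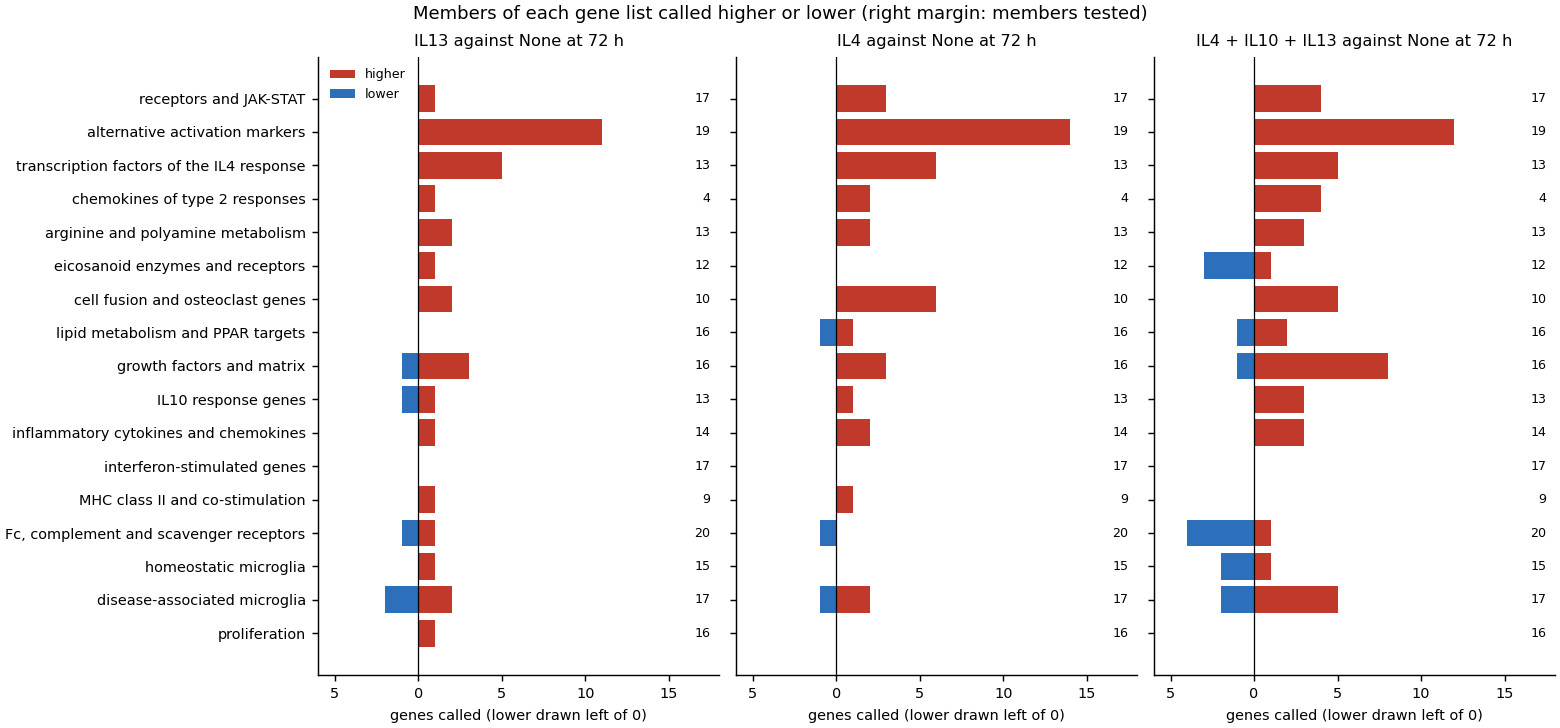
Number of members of 17 gene lists called higher or lower than untreated cultures at 72 h, in 3 panels for IL13, IL4 and the mix, with the number of members tested at the right. Alternative activation markers hold the most higher calls (11, 14 and 12 of 19), and no member of the interferon list was called. Of all genes, 0.965%, 1.56% and 2.2% were called higher.

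Of 13 transcription factors known from IL4-treated macrophages that were tested, 5 were called higher with IL13, 6 with IL4 and 5 with the mix, and none lower. The shares of all genes called higher were 0.965%, 1.56% and 2.2%. Egr2, an early growth response factor of alternative activation, was at 27.9 to 151 CPM with IL13, at 50.5, 177 and 197 CPM with IL4 and at 122 to 234 CPM with the mix. All 15 cultures lay above the untreated maximum of 26.2 CPM. Egr2 rose by 3.44 ± 0.56, 4.39 ± 0.76 and 4.85 ± 0.56 (adjusted p = 0.00011, 0.00013 and 1.2e-08). Klf4, a Krüppel-like factor that works with STAT6, rose by 3.32 ± 0.47, 3.58 ± 0.63 and 2.77 ± 0.47 (adjusted p = 3.7e-06, 0.00018 and 4.6e-05). Batf3 rose by 2.44 ± 0.56, 3.82 ± 0.75 and 3.16 ± 0.56 (adjusted p = 0.0083, 0.001 and 9.4e-05), its IL13 call being lost without IL13 culture 4 (1.91). Nfil3 rose by 2.99, 3.18 and 3.57, and the IL4 call was lost without IL4 culture 1 or 3 (2.84 and 2.91). With pool as a factor the Nfil3 calls of IL4 and the mix were lost (1.86 and 2.44), as was that of Klf4 with the mix (2.37). Ppargc1b, a coactivator of mitochondrial and fatty acid genes, was called with IL13 (2.33 ± 0.61, adjusted p = 0.028) and IL4 (3.14 ± 0.82, adjusted p = 0.021) and was at 0.76 ± 0.61 with the mix (adjusted p = 0.51). Its calls were lost without any 1 of IL13 cultures 1, 5 and 6 (2.13 to 2.23) or any 1 IL4 culture (3.00 to 3.24), and the IL4 call with pool as a factor (1.84). Msx3, a homeobox factor, rose by 2.77 ± 0.50, 6.02 ± 0.68 and 5.72 ± 0.50 (adjusted p = 0.00061, 5.1e-09 and 1.6e-12).

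Of 4 chemokines of type 2 responses tested, 1 was called higher with IL13, 2 with IL4 and 4 with the mix, where 0.965%, 1.56% and 2.2% of all genes were. The difference between these counts was not tested. Ccl6 was at 138 to 393 CPM with IL13, at 555, 591 and 661 CPM with IL4 and at 817 to 1193 CPM with the mix, against 33.5 to 279 CPM without a stimulus. The mix cultures were above all IL4 cultures, and these above all IL13 cultures. The mix differed from IL13 by 1.88 ± 0.37 (adjusted p = 0.0038), and from IL4 by 0.69 ± 0.45 (adjusted p = 0.95). Ccl6 was called with each stimulus (1.22 ± 0.29, 2.41 ± 0.39 and 3.10 ± 0.29, adjusted p = 0.012, 4.7e-05 and 1.5e-11), the IL13 call being lost with plate (0.885) or pool (0.85) as a factor and without IL13 culture 3 or 6 (1.11 and 1.17). Ccl24, an eotaxin that draws eosinophils, was at 0.872 to 15.3 CPM with the mix and at 0 in 5 of 6 IL13 cultures, a difference of 2.67 ± 0.39 (adjusted p = 2.3e-05). Over all wells the inflammatory list had no lower call: of 14 genes tested, Ccl7 rose with each stimulus (3.11, 4.69 and 3.70), Ccl2 with IL4 (3.32) and the mix (2.47), and Ccl12 with the mix (2.05). The Ccl2 call of IL4 was lost without any 1 of 13 of the 15 treated cultures (2.95 to 3.57) and that of the mix without mix culture 3, 5 or 6 (2.27 to 2.43). The Ccl12 call was lost without mix culture 5 or 6 (1.74 and 1.90), and the Ccl7 call of IL13 without IL13 culture 2 (2.61). With library pool as a factor the 3 Ccl7 calls were lost (2.0, 2.83 and 1.85), as were those of Ccl2 and Ccl12 with the mix (1.71 and 0.54). In middle wells alone 7, 8 and 6 of the inflammatory genes were lower with IL13, IL4 and the mix, where 423, 641 and 2855 of all genes were. Over all wells, 14 inflammatory genes and 12127 genes in all had been tested. Whether the list differed there from all genes was not tested. None of 17 interferon-stimulated genes was called with any of the 3 stimuli, where their median differences were −0.69, −0.21 and −0.22.

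Of 10 genes of cell fusion and of osteoclasts, the multinucleated bone macrophages, 2 were called with IL13, 6 with IL4 and 5 with the mix. The shares of all genes called were 1.48%, 2.29% and 6.06%, and the difference between the counts was not tested. Atp6v0d2, a subunit of the vacuolar proton pump needed for fusion, was at 213 to 493 CPM with IL13, at 620, 682 and 703 CPM with IL4 and at 591 to 919 CPM with the mix. All were above the untreated maximum of 135 CPM, and the differences were 2.21 ± 0.29, 3.30 ± 0.39 and 3.44 ± 0.29 (adjusted p = 5.1e-07, 1.6e-08 and 2.9e-13). Ocstamp, a fusion protein, was at 21.6, 77.8 and 90.2 CPM with IL4 (5.34 ± 0.79, adjusted p = 6.5e-06), and in the mix it was at 0 in cultures 3 and 4 and at 91.8 and 73.3 CPM in cultures 5 and 6. Dcstamp, its partner, was at 14.5, 12.3 and 25.2 CPM with IL4 and at 0 in 21 of 25 untreated cultures (4.06 ± 0.66, adjusted p = 4.7e-05). Ctsk, the collagen-cutting cathepsin, was called with IL4 (4.22 ± 0.82, adjusted p = 0.00089) and the mix (3.80 ± 0.61, adjusted p = 1.9e-05), with IL13 at 1.89 ± 0.61 (adjusted p = 0.11). Both Ctsk calls (3.81 and 2.73) and that of Ocstamp with the mix (0.92) were lost with pool as a factor.

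Itgax, the CD11c integrin found on dendritic cells and on activated microglia, was at 3.51 to 120 CPM without a stimulus, at 141 to 461 CPM with IL13, at 1937, 1811 and 1444 CPM with IL4 and at 319 to 2090 CPM with the mix. The IL13 cultures were below all IL4 cultures and above all untreated ones. Itgax rose by 3.18 ± 0.42, 5.78 ± 0.56 and 4.89 ± 0.42 (adjusted p = 5.6e-07, 7.3e-11 and 5.7e-13), and the difference of IL4 from IL13, 2.60 ± 0.65, did not pass (adjusted p = 0.084). The other dendritic cell markers stayed low: of Flt3, Zbtb46, Xcr1 and Clec9a, only Xcr1 with IL13 and Zbtb46 without a stimulus and with IL4 were above 1 CPM by median. Lgals3, a galectin of phagocytes, was at 1404 to 3396 CPM without a stimulus, at 3492 to 6084 with IL13, at 9410, 9199 and 7373 with IL4 and at 6520 to 10856 with the mix. No treated culture overlapped the untreated ones, and the differences were 1.28 ± 0.14, 2.07 ± 0.19 and 1.99 ± 0.14 (adjusted p = 9.4e-09, 2.6e-11 and 2.3e-15), the first lost with pool as a factor (0.997). Among 17 genes of disease-associated microglia tested, 2, 2 and 5 rose and 2, 1 and 2 fell with IL13, IL4 and the mix. The shares of all genes were 0.965%, 1.56% and 2.2% higher and 0.511%, 0.734% and 3.86% lower.

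Apoe, the lipid carrier of that list, was lower with each stimulus. It was at 9522 to 19705 CPM with IL13, at 7936, 6225 and 6775 CPM with IL4 and at 8208 to 11946 CPM with the mix. Untreated middle wells had 14925 to 19958 CPM of Apoe and untreated edge wells 27101 to 56911 CPM, so the IL13 cultures overlapped the untreated ones and the others did not. Apoe fell by 1.12 with IL13 (adjusted p = 0.011), by 2.12 with IL4 (adjusted p = 8.1e-05) and by 1.62 with the mix (adjusted p = 2.5e-05). In middle wells the differences were −0.37, −1.28 and −0.67, where the medians of all genes were −0.20, −0.30 and −0.78. The mix value was thus not below that of the median gene. Only the IL4 difference kept its call in middle wells, and the IL13 call was also lost without IL13 culture 5 (−1.01). The cholesterol exporters moved in opposite directions. Abca1 fell by 2.41 with IL4 (adjusted p = 0.0034) and by 2.28 with the mix (adjusted p = 5.4e-05), while Abcg1 rose by 1.99 ± 0.45 (adjusted p = 0.0059) and 2.17 ± 0.34 (adjusted p = 1e-05). With IL4, the Abcg1 call was lost without any 1 of the 3 cultures (1.95 to 2.03) and the Abca1 call without culture 1 (−2.01). Both Abca1 calls were lost with pool as a factor (−1.74 and −1.76).

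Of growth factor and matrix genes, 16 were tested, and 3 rose with IL13, 3 with IL4 and 8 with the mix, while 1, 0 and 1 fell. The shares of all genes were 0.965%, 1.56% and 2.2% higher and 0.511%, 0.734% and 3.86% lower. Fn1, fibronectin, was at 0.25 to 26.3 CPM without a stimulus, at 33.6 to 138 with IL13, at 365, 573 and 403 with IL4 and at 210 to 740 with the mix. No treated culture overlapped the untreated ones. Fn1 rose by 3.95 ± 0.49, 6.43 ± 0.66 and 6.20 ± 0.49 (adjusted p = 1.9e-07, 4.8e-10 and 6.2e-14), and IL10 alone gave 4.18 ± 0.49 (adjusted p = 1.3e-07). Mmp12, the macrophage elastase, was called with IL4 (1.78 ± 0.39, adjusted p = 0.0036) and the mix (1.82 ± 0.29, adjusted p = 1.6e-05) and with IL13 had 0.65 ± 0.29 (adjusted p = 0.3). The IL4 call of Mmp12 was lost without IL4 culture 2 (1.71). Mmp13, a collagenase, was at 53.7 to 195 CPM with the mix, all above the untreated maximum of 40.9 CPM (3.65 ± 0.59, adjusted p = 2.2e-05), a call lost with pool as a factor (3.03). Hbegf, a growth factor of the EGF family, was at 3.49 to 12.8 CPM in mix cultures 1 to 4 and at 104 and 96.3 CPM in cultures 5 and 6, and its call (3.73 ± 0.50, adjusted p = 3.3e-07) was lost with library pool as a factor (2.13). The summed level of 5 fibroblast markers was 1.58 to 29.9 CPM without a stimulus, 0.657 to 150 CPM with IL13, 1.2 to 12.8 CPM with IL4 and 2.46 to 278 CPM with the mix, with Col1a1 alone above 1 CPM by median, and their part in the matrix genes was not tested.

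Spp1 and Ctsl set the mix apart from IL13 and from IL4. Spp1, osteopontin, was at 250 to 312 CPM with IL13, at 301, 457 and 371 CPM with IL4, at 1868 to 3354 CPM with the mix (median 2403) and at 363 to 1038 CPM without a stimulus. All IL13 cultures lay below the untreated minimum and all mix cultures above the untreated maximum. Spp1 fell by 1.03 with IL13 (adjusted p = 0.00097) and rose by 2.11 ± 0.19 with the mix (adjusted p = 5.6e-12). The same size, 2.11 ± 0.19, was found with IL10 alone (adjusted p = 4.8e-11). Spp1 was higher with the mix than with IL13 by 3.14 ± 0.24 (adjusted p = 2.1e-13) and than with IL4 by 2.74 ± 0.30 (adjusted p = 2.6e-08). The fall with IL13 was −0.73 in middle wells and −0.995 and −0.992 without IL13 cultures 2 and 3, which is under the size needed for a call. Ctsl, the lysosomal protease cathepsin L, was at 406 to 1001 CPM without a stimulus, at 494 to 795 with IL13, at 1094, 1107 and 1288 with IL4 and at 2781 to 7420 with the mix (median 4162). Only the mix was called (2.74 ± 0.18, adjusted p = 1.8e-16), with IL4 at 0.85 ± 0.25 (adjusted p = 0.052), IL13 at −0.05 ± 0.18 and IL10 alone at 0.03 ± 0.18. Ctsl with the mix exceeded IL13 by 2.79 ± 0.23 (adjusted p = 1.6e-12) and IL4 by 1.89 ± 0.29 (adjusted p = 7.1e-05).

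Receptors of the innate immune system were among the falls. Clec4n, the Dectin-2 receptor for fungal sugars, was at 23.2 to 579 CPM without a stimulus, at 0 to 13.4 CPM in 5 IL13 cultures and 224 CPM in culture 4, at 16.1, 3.76 and 17 CPM with IL4 and at 0.32 to 42.5 CPM with the mix. It fell by 3.46 with IL13 (adjusted p = 0.0059) and by 4.34 with the mix (adjusted p = 9.1e-05), and had −3.49 ± 1.03 with IL4 (adjusted p = 0.056). The IL13 call was lost without IL13 culture 5 (−2.75). Clec4d, a receptor of the same family, was at 30.6 to 184 CPM with IL13, at 61.6, 39.9 and 39.1 CPM with IL4, at 133 to 174 CPM in mix cultures 1 to 4 and at 4.79 and 15.4 CPM in mix cultures 5 and 6. Untreated middle wells had 178 to 295 CPM and untreated edge wells 483 to 860 CPM, and IL13 culture 4 alone reached the untreated range. Clec4d fell by 2.35 (adjusted p = 0.00078), 3.13 (adjusted p = 0.00047) and 2.73 (adjusted p = 1.5e-05) with IL13, IL4 and the mix, and in middle wells the differences were −1.72, −2.26 and −4.53. Marco, a scavenger receptor for bacteria and particles, fell by 2.64 with IL13 (adjusted p = 0.0041) and by 1.90 with the mix (adjusted p = 0.029), with IL4 at −2.0 ± 0.76 (adjusted p = 0.21). The IL13 call of Marco was lost without IL13 culture 5 or 6 (both −2.18) and the mix call without mix culture 5 or 6 (−1.67 and −1.53) and with pool as a factor (−1.19).

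S1pr1, the receptor for sphingosine 1-phosphate, was at 54.7 to 154 CPM without a stimulus, at 22.5 to 81.8 with IL13, at 4.71, 8.77 and 11 with IL4 and at 0 to 27 with the mix. The IL4 and mix cultures did not overlap the untreated ones. S1pr1 fell by 3.41 with IL4 (adjusted p = 5.3e-06) and by 3.17 with the mix (adjusted p = 1.3e-08), and had −1.06 ± 0.37 with IL13 (adjusted p = 0.15). It was lower with the mix than with IL13 by −2.11 ± 0.47 (adjusted p = 0.012), a call lost with library pool as a factor (−0.96) and without IL13 culture 5 (−1.93). Slc40a1, the iron exporter ferroportin, fell by 3.74 with IL4 (adjusted p = 0.00076) and by 3.15 with the mix (adjusted p = 4.9e-05), the latter call being lost with pool as a factor (−0.83). Nr4a1, an early-response nuclear receptor, was at 0 to 1.99 CPM with IL13, at 0.24 to 1.46 with IL4 and at 0 to 5.13 with the mix, against a median of 23.5 CPM without a stimulus. Its falls of 3.08, 3.39 and 3.04 were called (adjusted p = 0.0044, 0.024 and 0.0018), and each lost its call with pool as a factor (−2.09, −3.80 and −2.96). The IL4 call of Nr4a1 was lost also with plate as a factor (−2.69) and without any 1 of the IL4 cultures (−3.70 to −3.20). Sod1, the cytosolic superoxide dismutase, was at 68.3, 80.3 and 52.7 CPM with IL4 and at 22.9 to 142 CPM with the mix, all below the untreated minimum of 169 CPM. It fell by 1.75 with IL4 (adjusted p = 2.7e-05) and by 1.39 with the mix (adjusted p = 3.5e-06), and was at 162 to 355 CPM with IL13 (0.06 ± 0.21, adjusted p = 0.94).

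Among 20 Fc, complement and scavenger receptors, 1, 0 and 1 rose and 1, 1 and 4 fell with IL13, IL4 and the mix. Over all genes 0.965%, 1.56% and 2.2% rose and 0.511%, 0.734% and 3.86% fell, and counts of 0 or 1 in a list of this size are not read as a result about the receptors. Fcgr2b, the inhibitory Fc receptor, was at 800 to 1154 CPM with IL13, all above the untreated maximum of 582 CPM, at 520, 578 and 522 CPM with IL4, and at 1180 to 1696 CPM in mix cultures 1 to 4 but 434 and 532 CPM in cultures 5 and 6. It was called with IL13 (1.74 ± 0.32, adjusted p = 0.00091) and the mix (1.78 ± 0.32, adjusted p = 0.00015). Within middle wells the differences were 0.96 and −0.0045, where the medians of all genes were −0.20 and −0.78, and both calls were lost. Of 15 homeostatic microglial genes tested, Selplg rose with IL13 (1.24 ± 0.33, adjusted p = 0.031), where 0.965% of all genes rose. With the mix, Fcrls rose (1.53 ± 0.47, adjusted p = 0.032) and Tgfbr1 fell by 1.29 (adjusted p = 0.0073), where 2.2% and 3.86% of all genes rose and fell. Each call was lost under some alternative: Selplg lost its call in middle wells (0.71) and without any 1 of 4 IL13 cultures (1.13 to 1.18), Fcrls with pool as a factor (1.45) and without any 1 of 4 mix cultures (1.39 to 1.54), and Tgfbr1 with pool as a factor (−0.81) and without mix culture 5 (−1.10). Cx3cr1, the fractalkine receptor, had −2.86 ± 0.79 with the mix (adjusted p = 0.016), a call lost without mix culture 5 or 6 (−2.58 and −2.37) and with pool as a factor (−1.60). Of eicosanoid enzymes, Ptgs1 rose with IL13 (2.59 ± 0.53, adjusted p = 0.0019) and the mix (1.97 ± 0.53, adjusted p = 0.012), the latter lost with pool as a factor (1.96) and without mix culture 5 or 6 (1.85 and 1.77). Hpgd, which inactivates prostaglandins, was at 8.32 to 22.1 CPM with the mix and at 76.6 to 176 CPM with IL13, and was lower with the mix by −2.79 ± 0.56 (adjusted p = 0.004). Cd74, the MHC class II chaperone, rose with IL13 (2.09 ± 0.51, adjusted p = 0.015) and IL4 (2.97 ± 0.68, adjusted p = 0.0069), and no other of the 9 MHC class II and co-stimulation genes tested was called with any stimulus. The Cd74 calls were lost without any 1 of 4 IL13 cultures (1.87 to 2.01) and without IL4 culture 1 or 3 (2.93 and 2.81).

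Over all wells the direct comparisons gave fewer calls. The mix differed from IL13 in 157 genes (1.29% of genes tested), with 51 higher (0.421%) and 106 lower (0.874%). Rescaling the cultures by their median ratio turned this split to 65 higher and 72 lower and moved the median difference of all genes from −0.21 to −0.09. The mix differed from IL4 in 12 genes (0.099%), 4 higher (0.033%) and 8 lower (0.066%). IL4 differed from IL13 in 16 genes (0.132%), 14 higher (0.115%) and 2 lower (0.0165%), and in middle wells in 112, 45 higher and 67 lower. In middle wells the mix, with cultures 5 and 6 left, differed from IL13 in 2174 genes, 502 higher and 1672 lower. It differed there from IL4 in 1410 genes, 326 higher and 1084 lower. No mix culture shared both plate and well type with the IL4 cultures, so stimulus cannot be told apart from these. For comparisons with the 3 IL4 cultures, 3 against 6 cultures, an exact rank-sum test has a smallest p of 0.0238 (2-sided).

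Bex1, a small signalling adapter known from neurons, was among the clearest differences. It was at 0, 4.24, 5.20, 0, 0 and 0 CPM with IL13, at 40.7, 63.5 and 22.8 CPM with IL4, at 14, 19.5, 21.6, 55.7, 177 and 216 CPM with the mix and at most 1.44 CPM without a stimulus. The IL13 cultures did not overlap those given IL4 or the mix. Bex1 was higher with the mix than with IL13 by 4.80 ± 0.51 (adjusted p = 5.1e-09) and higher with IL4 than with IL13 by 4.48 ± 0.63 (adjusted p = 2e-05), and no neuronal marker but Rbfox3 was above 1 CPM by median in any group at 72 h. Itgb3, the beta 3 integrin, was at 0.505 to 25.4 CPM with IL13, at 50.1, 83.6 and 113 CPM with IL4 and at 49.4 to 140 CPM with the mix, and exceeded IL13 with the mix by 3.56 ± 0.78 (adjusted p = 0.01). Pdcd1lg2, the PD-L2 ligand that restrains T cells, was higher with IL4 than with IL13 by 3.85 ± 0.59 (adjusted p = 8.6e-05) and with the mix than with IL13 by 2.77 ± 0.48 (adjusted p = 0.00082). Both Pdcd1lg2 calls were lost with library pool as a factor (2.88 and 1.98). Myrf, a myelin gene regulator, was at 58.5, 64.5 and 42.4 CPM with IL4 and at 0.773 to 7.91 CPM with IL13 (3.78 ± 0.73, adjusted p = 0.0047), a call lost with pool as a factor (2.19) and without IL4 culture 1 or 2 (3.73 and 3.66). Avpr2, a vasopressin receptor, was at 20.9, 15.7 and 11.3 CPM with IL4, at or near 0 in all IL13 cultures and in 5 of 6 mix cultures, and at up to 12.4 CPM without a stimulus. Cystm1, a small membrane protein, was higher with the mix (13.8 to 79.5 CPM) than with IL13 by 3.54 ± 0.71 (adjusted p = 0.0046) and than with IL4 by 4.37 ± 0.87 (adjusted p = 0.011), the latter call being lost without IL4 culture 1 or 3 (4.53 and 3.91).

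**Figure D4:**
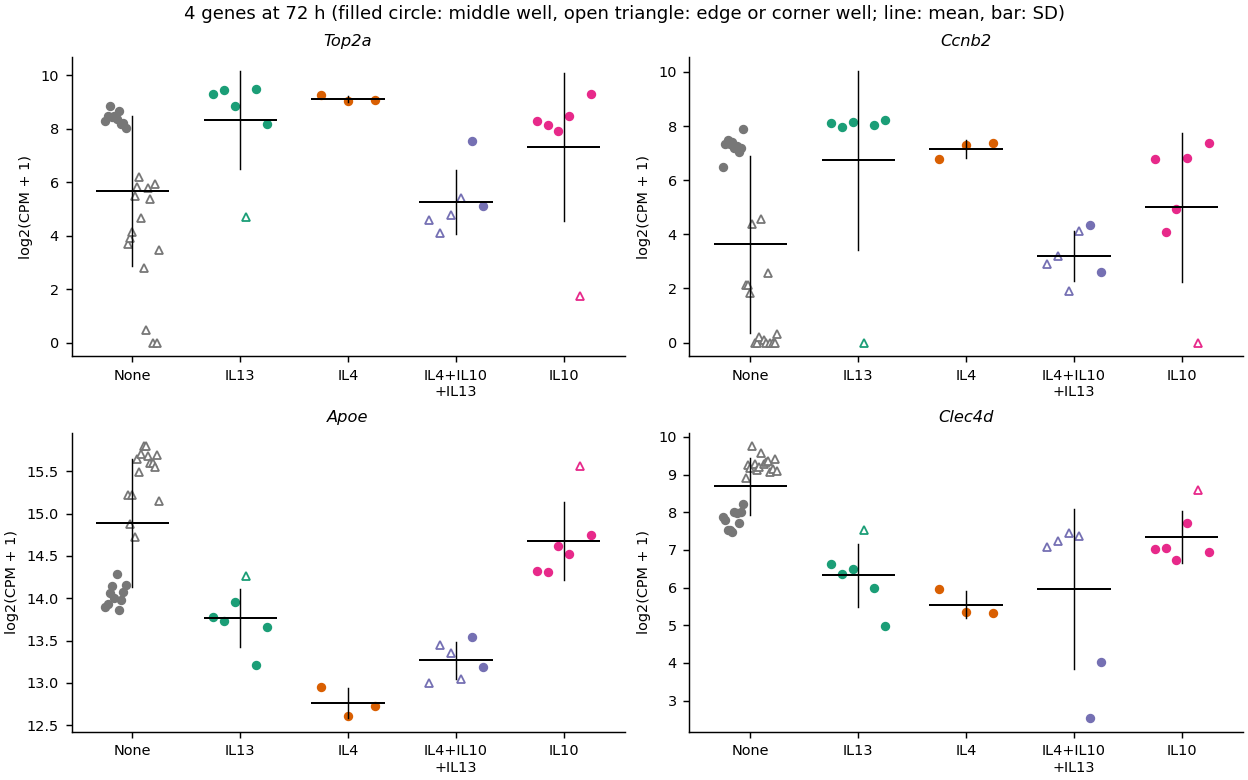
Level of Top2a, Ccnb2, Apoe and Clec4d in each culture at 72 h, as log2(CPM + 1) on the vertical axis, by group (filled circles are middle wells, open triangles edge or corner wells, lines and bars are mean and SD). The untreated cultures fall into separate ranges for middle and edge wells, such as 261 to 463 against 0 to 71.7 CPM for Top2a, and these wells lay on different plates.

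Proliferation genes differed between untreated middle and edge wells, which lay on different plates, so position and plate cannot be told apart there. Top2a, the topoisomerase of dividing cells, was at 261 to 463 CPM in untreated middle wells and at 0 to 71.7 CPM in untreated edge wells. It was at 623, 702, 465, 25.2, 724 and 289 CPM in IL13 cultures 1 to 6, at 608, 523 and 537 CPM with IL4 and at 16 to 41.5 CPM in 5 mix cultures, culture 5 being higher. The low IL13 culture was the one in the edge well, and all mix cultures were below the untreated middle wells. No Top2a difference from untreated cultures was called over all wells (2.66 ± 1.03, 3.45 ± 1.38 and −0.42 ± 1.03, adjusted p = 0.21, 0.25 and 0.86). Of 16 proliferation genes, 1 was called with IL13, Cdc20 (2.57 ± 0.66, adjusted p = 0.023, lost without IL13 culture 1, 3 or 5 at 2.19 to 2.53), and none with IL4 or the mix. The median differences were 2.30, 2.61 and −0.31. With plate as a factor 14, 9 and 0 of the 16 were higher, where 551, 346 and 348 of the 12127 genes tested were. Every untreated well on the plates of the treated cultures was an edge or corner well. Within middle wells none was called with IL13 or IL4, and 13 were lower with the mix, as were 2855 of all genes (12127 were tested over all wells). Plk1, a mitotic kinase, was called with IL13 (3.73 ± 1.03, adjusted p = 0.042), and that call was lost without any 1 of 5 IL13 cultures (3.42 to 3.72). Against IL13, the mix had less Cenpf, a kinetochore protein, by −3.74 ± 0.89 (adjusted p = 0.021), lost without IL13 culture 6 or mix culture 5 (−3.38 and −3.68). E2f2, a cell cycle factor, was lower by −3.49 ± 0.86 (adjusted p = 0.025), lost with pool as a factor (−2.37) and without any 1 of 4 cultures (−3.41 to −2.87).

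The response to each single cytokine was also compared between 72 h and 24 h, as the difference from untreated cultures at 72 h less that at 24 h. All cultures at 72 h came from 1 lot of cells, while the IL13 and IL4 cultures at 24 h came from the other lots, so time and lot cannot be told apart for the treated cultures. At 24 h itself, 253 genes were called with IL13 (1.9%), 227 higher (1.7%) and 26 lower (0.195%), and 488 with IL4 (3.67%), 377 higher (2.83%) and 111 lower (0.834%). The IL13 response differed in 176 genes of 13315 tested (1.32%), with 59 higher (0.443%) and 117 lower (0.879%) at 72 h. That split became 362 higher and 205 lower with culture plate as a factor, 209 and 81 with library pool, and 53 and 54 with cell lot. The IL4 response differed in 253 genes (1.9%), with 105 higher (0.789%) and 148 lower (1.11%), a split that became 152 and 121 after rescaling by median ratio, 217 and 156 with plate as a factor, 98 and 54 with pool, and 88 and 62 with lot.

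**Figure D5:**
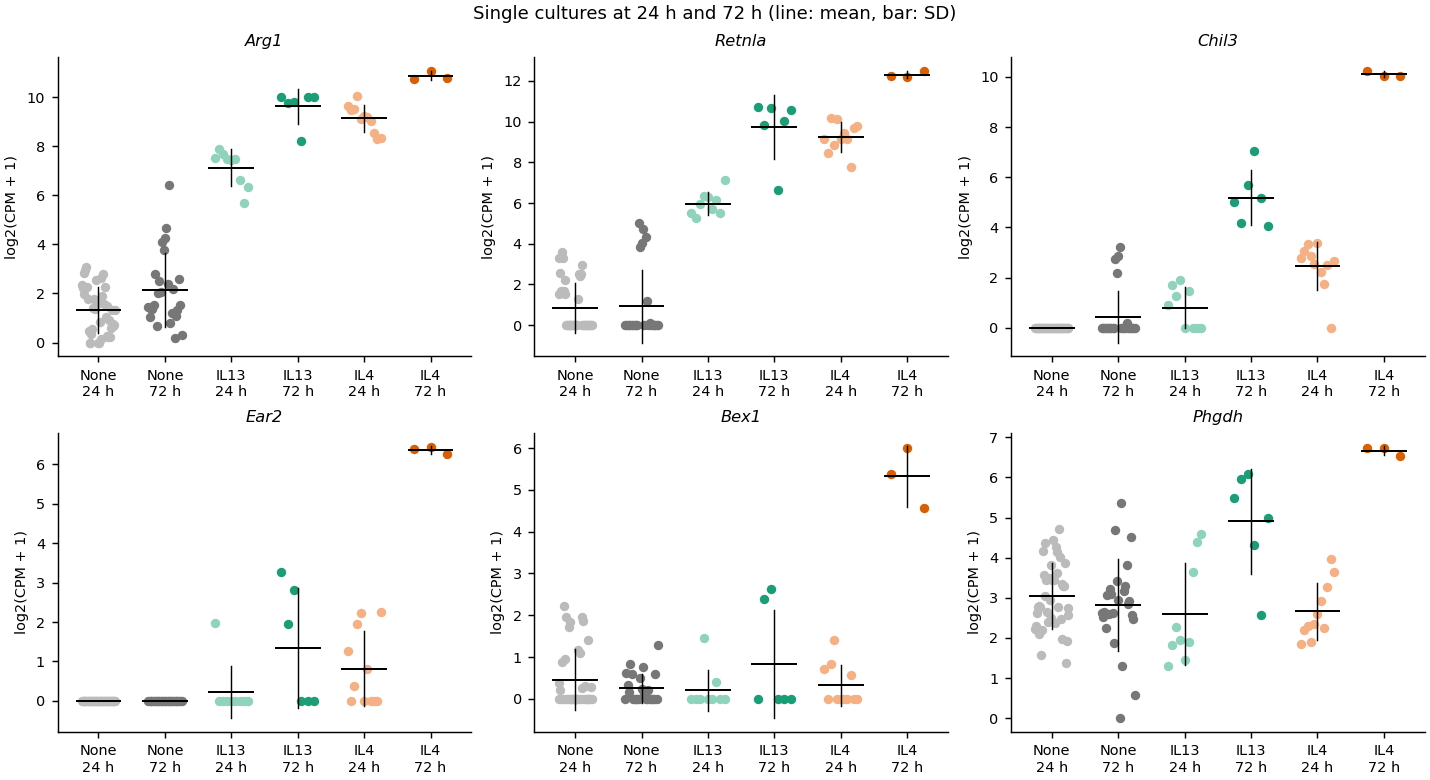
Level of Arg1, Retnla, Chil3, Ear2, Bex1 and Phgdh in each culture at 24 and 72 h, as log2(CPM + 1) on the vertical axis, for untreated, IL13 and IL4 cultures (points are cultures, lines and bars are mean and SD). Chil3 and Bex1 with IL4 were at most 9.46 and 1.65 CPM at 24 h and at least 1045 and 22.8 CPM at 72 h.

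Chil3 had its high values at 72 h. At 24 h it was at 0 to 2.78 CPM with IL13 and at 0 to 9.46 CPM with IL4, and at 0 in all 40 untreated cultures, against 15.7 to 131 and 1045 to 1216 CPM at 72 h. The cultures of the 2 times did not overlap for either cytokine. The response was larger at 72 h by 3.94 ± 0.48 with IL13 (adjusted p = 9.3e-09) and by 7.20 ± 0.58 with IL4 (adjusted p = 1.4e-18). Ear2 with IL4 was at 0 to 3.76 CPM at 24 h and 75.3 to 86.1 CPM at 72 h, and its response was larger by 5.55 ± 0.47 (adjusted p = 1.2e-17). Bex1 was at 0 to 1.65 CPM with IL4 at 24 h, and its response was larger at 72 h by 5.21 ± 0.52 (adjusted p = 1.1e-13). Phgdh, the first enzyme of serine synthesis, was at 2.61 to 14.5 CPM with IL4 at 24 h and at 105, 105 and 91.6 CPM at 72 h, a difference of 4.24 ± 0.68 in the response (adjusted p = 1.5e-05) that lost its call with pool as a factor (2.83). Arg1 was at 49.8 to 236 CPM with IL13 and at 316 to 1050 CPM with IL4 at 24 h, and its responses did not differ between the times beyond the test (1.68 ± 0.63, adjusted p = 0.16, and 0.92 ± 0.75, adjusted p = 0.57). Retnla was at 37.3 to 137 CPM with IL13 at 24 h, and the IL13 response was larger at 72 h by 3.67 ± 0.77 (adjusted p = 0.0044), while that to IL4 gave 2.96 ± 0.92 (adjusted p = 0.066). Spp1 went the other way: with IL13 it was at 431 to 2001 CPM at 24 h and 250 to 312 CPM at 72 h, and the response was lower at 72 h by −1.69 ± 0.45 (adjusted p = 0.034). With pool as a factor this difference was −0.78, under the size of a call, and its call was also lost without IL13 culture 5 of 72 h (−1.70).

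The genes counted as not overlapping with untreated cultures give the same comparison without a model. With IL13, 25 genes had every culture above every untreated one (0.206% of genes tested) and 2 had every culture below (0.0165%). With IL4 these were 241 (1.99%) and 69 (0.569%), a count raised by its 3 cultures, and with the mix 53 (0.437%) and 12 (0.099%). One of the study's gene modules, a list of 31 genes chosen here after its values were seen, was built on cultures of this series, which may include these, and is not taken as independent evidence of its direction. It had 27 genes tested, of which 14, 20 and 18 rose with IL13, IL4 and the mix and none fell. Of all genes, 0.965%, 1.56% and 2.2% rose.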

How the data were processed

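Primary mouse microglia cultures were profiled by 3′-end RNA sequencing. Per the study's methods and the submitters' processing notes, the authors quantified reads with salmon 0.7.1, added up the reads of each gene's isoforms and scaled them by the mapped reads of the library. The methods call the result TPM; as no division by length is described, the deposited values were treated here as CPM. They stand in 1 table of cultures that also gives each library's mapped reads. The labels name another genome build than the transcript index of the methods, and no coordinate was taken from the table. Of its 784 columns of cultures, 106 entered the fits and 678 were not used, nor was the table of microglia taken from mice.

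CPM were tested as log2(CPM + 1) with limma 3.58.1 (lmFit, eBayes with trend) in R 4.3.3. Genes above 5 CPM in at least 3 cultures were kept, and p-values were Benjamini-Hochberg adjusted over all of them. A fit of 46 cultures (5 groups at 72 h) gave the comparisons at 72 h, and a fit of 106 cultures (8 groups) those between 72 h and 24 h. No batch term was used. The method was tested on simulated data, where it recovered 80 of 100 genes changed by a log2 of 2 with IL13, 66 with IL4 and 83 with the mix, and 95, 80 and 92 of 100 changed by a log2 of 3, and called 5, 14 and 6 genes that had not been changed. Simulated cultures were drawn independently, without plate, pool or well effects tied to the groups, and genes with low means were not changed. These figures therefore do not cover errors from plate, pool or well.

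For each comparison with untreated cultures the text names genes from the 10 largest rises and 8 largest falls among called genes with a mean of at least 10 CPM in the higher group and every treated culture on 1 side of the untreated median. For direct and time comparisons these are the 6 largest each way, and members of 17 gene lists are added. The members and lists were chosen with earlier results of these data known. Alternatives were another pseudocount, filter and scaling, plate, pool and cell lot as factors, narrower sets of untreated cultures or groups, an exact rank-sum test and leaving out single cultures. Middle wells only and libraries of at least 2 M reads were chosen after seeing the data. Replicate numbers only name cultures. Nothing says that replicates came from separate animals, so p-values measure the spread between wells, which may be technical. Low values were not whole multiples of 1 read often enough to recover reads. Promoter sequences are from RefSeq. The counts of promoters cover all matches, of which only some are printed, and another is not reported here.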

Additional observations from a re-analysis of the deposited data

Results flagged for a closer look

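Single cultures far from the rest of their group were looked for among the IL13 and the mix cultures for 111 named genes, on the log2(CPM + 1) scale. Of 222 groups tested, 29 held such a culture. The rule flags about 1 in 20 groups of normally spread values. A gene at 0 in every other culture is flagged at any value, such as Ptchd1 (0.168 CPM) and Pla2g4d (0.44 CPM). The 29 are therefore not set against that rate. IL13 culture 4, the only IL13 culture in an edge well, accounted for 11 of the 29. It was the low one for Arg1 (291 CPM), Retnla (99.6), Slc7a2 (37.2), Plk1 (8.85), Mrc1 (96), Top2a (25.2), Ccl2 (0.253), and Cbr2, Ccnb2 and Cd74 (0 each), and the high one for Mmp12 (1594). The part of the well in these values was not tested. Other IL13 cultures stood apart for Crocc (3.10 CPM, culture 2), Pdcd1lg2 (7.27, culture 1), Pla2g4d (0.44, culture 1), Ccl24 (1.1, culture 1), Socs2 (54.8, culture 6) and Dcstamp (26, culture 6). In the mix, culture 1 stood apart for Ear2 (23 CPM), E2f2 (4.07), Crocc (2.62) and Pla2g4d (49.1), and culture 5 for Avpr2 (1.71), Sod1 (22.9) and Laptm4b (0). Mix cultures 2, 3, 4 and 6 did so for Ptchd1 (0.168), Pdcd1lg2 (0), Hnmt (1.09), and both S1pr1 (0) and Chil4 (17.6).

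The response at 72 h less that at 24 h passed the test, in log2 units, for 20 named genes with IL13 and 27 with IL4. Time cannot be told apart from cell lot for the treated cultures. The IL13 response was larger at 72 h for Chil3 (3.936), Retnla (3.670), Cbr2 (3.185), Phgdh (2.543), Ttc38 (2.301), Fn1 (2.261), Cish (2.087), Msx3 (2.046), Rnase2a (1.986), F7 (1.966) and Selplg (1.210). It was lower for mt-Rnr1 (−6.104), Nr4a1 (−3.798), Pianp (−3.062), Taf1d (−2.955), Laptm4b (−2.886), Polr2k (−2.713), Pdcd10 (−2.687), Arrdc3 (−2.476) and Spp1 (−1.695). The IL4 response was larger for Chil3 (7.198), Ear2 (5.554), Bex1 (5.213), F7 (4.853), Fn1 (4.311), Phgdh (4.235), Itgax (3.901), Chil4 (3.620), Rnase2a (3.545), Slc7a2 (2.672), Crocc (2.649), Pdcd1lg2 (2.568), Tgm2 (2.503), Cish (2.066) and Msx3 (2.057). It was lower for Ptchd1 (−4.022), Trp53inp1 (−3.621), Pla2g4d (−3.566), mt-Nd5 (−3.471), Gdap10 (−3.444), Arrdc3 (−3.368), Cystm1 (−2.803), Slc40a1 (−2.678), S1pr1 (−2.446), Phax (−2.326), Clec4d (−1.950) and Sod1 (−1.330). At 24 h mitochondrial genes took a median of 6.17% of the values with IL13, 5.29% with IL4 and 3.02% without a stimulus. At 72 h the medians were 2.22%, 1.08% and 3.08%. The part of this in the differences of mt-Rnr1 and mt-Nd5 was not tested. Of the 20 IL13 differences, 11 lost their call when some 1 treated culture of 72 h was left out (Arrdc3, Cbr2, F7, Msx3, Pianp, Polr2k, Rnase2a, Selplg, Spp1, Ttc38 and mt-Rnr1), 9 with library pool as a factor and 5 with culture plate. Without IL13 culture 4, that of F7 was 1.15 and that of Rnase2a 3.05. Of the 27 IL4 differences, 14 lost their call when some 1 culture was left out (Arrdc3, Cish, Clec4d, Crocc, Cystm1, Gdap10, Msx3, Phax, Ptchd1, S1pr1, Slc40a1, Slc7a2, Trp53inp1 and mt-Nd5), 14 with pool and 10 with plate.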

How the results depend on the processing

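Counts of called genes moved by over 1.5 times under several alternatives, and the cause was not tested. With culture plate as a factor they were 750 for IL13, 513 for IL4, 597 for IL10, 525 for the mix against IL13, 33 for the mix against IL4, 26 for IL4 against IL13 and 567 for the IL13 response over time. With library pool they were 410 (IL13), 180 (mix), 394 (IL10), 70 (mix against IL4), 290 (IL13 over time) and 152 (IL4 over time). With middle wells alone, chosen after seeing the data, they were 648 (IL13), 969 (IL4), 3589 (mix), 919 (IL10), 2174 (mix against IL13), 1410 (mix against IL4) and 112 (IL4 against IL13). With libraries of at least 2 M reads, also chosen after seeing the data, they were 112 (IL13), 77 (IL10), 99 (mix against IL13), 115 (IL13 over time) and 403 (IL4 over time). Untreated cultures of the same plates gave 454 for IL13. With no filter there were 108 (IL10), 89 (mix against IL13), 24 (mix against IL4), 27 (IL4 against IL13) and 111 (IL13 over time). A filter of 10 CPM in 6 cultures gave 6 (mix against IL4) and 7 (IL4 against IL13), and a pseudocount of 5 gave 120 (IL10) and 38 (IL4 against IL13). Fits of the compared groups alone gave 51 (mix against IL13), 28 (mix against IL4), 2 (IL4 against IL13) and 445 (IL4 over time), and cell lot as a factor gave 107 and 150 for IL13 and IL4 over time. The exact rank-sum test gave 93 for IL10 and 0 for the mix against IL13, where limma gave 157 and 1203 genes had an unadjusted rank-sum p under 0.05. For the mix and IL13 against IL4 the smallest p of the rank-sum test, 0.0238, did not pass the adjustment. The smallest adjusted p of that test was 0.51 and 0.594. Leaving out 1 treated culture gave 107 to 222 for IL13, 115 to 303 for IL4, 421 to 768 for the mix, 152 to 212 for IL10, 55 to 185 for the mix against IL13, 4 to 14 for the mix against IL4, 7 to 27 for IL4 against IL13, and 82 to 213 and 64 to 290 over time for IL13 and IL4. The lowest counts came without IL13 culture 5 (107, 55 and 82), mix culture 5 (421) and IL4 culture 1 (115, 4, 7 and 64). Of 284 single-gene differences, 255 kept their call with plate as a factor, 182 with pool, 275 with a pseudocount of 5, 282 after rescaling, 212 of 235 in middle wells and 182 whichever treated culture was left out. Direction changed for mt-Rnr1 with IL4 under the pool factor (0.10) and for Fcgr2b with the mix in middle wells (−0.00448), where the median of all genes was −0.78. Cell lot could not be used at 72 h, where there was 1 lot. No paired analysis was possible because the labels give no replicate numbers. Depth limits values near 1 CPM.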

Other observations

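Further genes of the named lists were called at 72 h. Ch25h, which makes 25-hydroxycholesterol, rose by 3.04 ± 0.60 with IL13, 3.77 ± 0.80 with IL4 and 4.16 ± 0.60 with the mix (limma, adjusted p = 0.0013, 0.0026 and 1.8e-06), the IL4 call being lost with pool as a factor (2.90) and without IL4 culture 3 (3.48). Tgm2, a transglutaminase, was called with IL4 (2.50) and the mix (2.36) and was at 0.48 with IL13, and both calls were lost with pool as a factor (1.40 and 0.803), that of IL4 also with plate (1.42). Pla2g7, which breaks down platelet-activating factor, was at 54.4 to 98.9 CPM in untreated middle wells and at 184 to 759 CPM in untreated edge wells. Its differences were −2.45, −2.60 and −2.42, called with IL13 and the mix, and the calls were lost in middle wells for IL13 (−1.01) and without mix culture 5 or 6 for the mix (−1.84 and −1.88).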
